A study of Mus musculus with 6 samples.

Results

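The set comprises 10 genes of oxidative and metal stress: Nfe2l2, Nqo1, Hmox1, Gclc, Gclm, Slc7a11, Txnrd1, Srxn1, Mt1 and Mt2. They were chosen by symbol as rows of an expression table of 19320 genes, and all 10 were found. Nfe2l2 encodes NRF2, a transcription factor that KEAP1 holds for degradation in resting cells and that is freed by electrophiles and oxidants. Freed NRF2 binds antioxidant response elements with small MAF proteins and drives genes for glutathione supply, thioredoxin recycling, quinone reduction and heme breakdown. Metallothioneins bind zinc and copper in the cytoplasm and are induced by metals through the factor MTF1 and by glucocorticoids. In the heart both systems are known as defences against oxidative injury.

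RNA-seq was done on 6 samples labelled as mouse heart, all at 2 weeks. The 3 groups of 2 were mice with Snai1 knockdown after transverse aortic constriction (TAC), wild-type mice after TAC, and wild-type mice after sham surgery. TAC is a surgical narrowing of the aorta against which the left ventricle has to pump, and Snai1 encodes Snail, a transcriptional repressor. The series describes the knockdown as shSnai1 in a pressure overload model, and its title speaks of EndoFP, which is not explained. Neither the vector, the cells that received it, nor the age, sex and strain of the mice are given in the sources used here. The wild-type groups are not stated to have received a control hairpin. The protocol names both heart tissue and cultured cells as sources of RNA, and only the tissue label says which was used.

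The deposited columns of a group behaved as 60:40 mixes of 2 libraries and were resolved into whole reads, which gave 15254674 and 18247816 reads in knockdown TAC, 18094371 and 17221296 in TAC, and 14835962 and 17411291 in sham. Values are in CPM, reads per 1000000 of the library, and 3 reads corresponded to between 0.164 and 0.202 CPM. Nothing states that the 2 samples of a group came from separate animals, so p-values measure only the spread between these samples, which may be technical. Snai1 itself had 3.41 and 2.74 CPM in knockdown TAC, 4.48 and 4.24 in TAC, and 5.12 and 3.45 in sham. Knockdown TAC lay below TAC by -0.51 ± 0.33 on the log2 scale (SE; limma adjusted p = 0.999), so the target did not pass the test. Cardiomyocyte markers were abundant in every library, with 8 of 8 detected and summed levels of 92522 to 100096 CPM in knockdown TAC, 103701 to 103909 in TAC and 98115 to 101076 in sham. The sham libraries differed from each other in blood markers: 6 erythroid genes summed to 1758 CPM in sham replicate 1 and 904 in sham replicate 2, and 11 lymphocyte genes to 15.2 and 4.02 CPM. Erythroid sums were 755 to 1126 CPM in knockdown TAC and 792 to 865 in TAC, and lymphocyte sums were 4.77 to 9.05 and 3.43 to 4.30 CPM. In bulk samples such as these, fewer cells of a type and less RNA per cell cannot be told apart.

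Promoters were compared because NRF2 and MTF1 act through known short elements. RefSeq promoters on GRCm38.p6, running from 250 bases before to 50 after a start site, were available for 8 of the 10 genes, Gclc and Hmox1 being the exceptions. The core of the antioxidant response element, TGACNNNGC, was searched on both strands and was present for 5 genes, Nfe2l2, Srxn1, Gclm, Mt2 and 1 of 3 promoters of Txnrd1. Counted by promoter, 5 of the 10 promoters of the 8 genes held it, against 12.4% of all 32851 promoters of the same length. The genes were chosen for their role in oxidative and metal stress, so a higher share is to be looked for and is no separate result. Of the 10 promoters, 3 belong to Txnrd1, and the difference was not tested. No match was found within these windows for Nqo1, Slc7a11 or Mt1. Sequence outside the windows was not searched, so a gene without a match may hold the core elsewhere. The core of the metal response element, TGCACNC or TGCGCNC, was present 4 times for Mt2, 3 times each for Mt1 and Gclm and once for Srxn1. At least 1 such core was found in 25.7% of all promoters and 3 or more in 1.97%. The Gclm promoter is printed because Gclm had the lowest fold changes against sham among the tested genes of the set, and the capitals mark its antioxidant core, which lies on the opposite strand at -134 from the start site and overlaps a metal core by its first bases. The promoters of Mt1 and Mt2 are printed because these neighbouring genes of 1 family were counted at very different levels, and the capitals mark their metal response cores. The windows are chr3:122245307-122245606 for Gclm, chr8:94178839-94179138 for Mt1 and chr8:94172368-94172667 for Mt2, all on the plus strand and written 5′ to 3′.
Gclm: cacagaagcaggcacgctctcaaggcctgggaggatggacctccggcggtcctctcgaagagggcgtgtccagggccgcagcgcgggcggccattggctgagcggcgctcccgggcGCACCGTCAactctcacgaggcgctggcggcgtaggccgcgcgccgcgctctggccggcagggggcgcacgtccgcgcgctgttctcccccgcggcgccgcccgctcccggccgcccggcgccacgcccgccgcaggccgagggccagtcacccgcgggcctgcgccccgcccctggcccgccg
Mt1: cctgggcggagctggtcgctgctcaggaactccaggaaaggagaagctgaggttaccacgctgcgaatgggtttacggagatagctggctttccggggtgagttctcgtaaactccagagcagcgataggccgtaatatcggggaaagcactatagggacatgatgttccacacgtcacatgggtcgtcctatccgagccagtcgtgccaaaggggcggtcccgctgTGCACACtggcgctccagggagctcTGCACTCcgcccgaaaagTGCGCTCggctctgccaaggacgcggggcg
Mt2: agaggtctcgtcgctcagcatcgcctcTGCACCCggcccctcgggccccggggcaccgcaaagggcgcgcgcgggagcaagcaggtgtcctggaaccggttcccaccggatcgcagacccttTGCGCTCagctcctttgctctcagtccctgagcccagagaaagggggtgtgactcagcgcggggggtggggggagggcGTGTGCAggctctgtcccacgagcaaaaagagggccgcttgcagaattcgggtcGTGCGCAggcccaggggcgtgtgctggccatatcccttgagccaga
A match describes these letters and is no measure of binding.

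The 10 genes spanned a wide range of levels. To compare genes, CPM was divided by the length in kilobases of all annotated exons of a gene (GENCODE M21 on GRCm38). On this scale the mean level over the 6 libraries was 116 CPM per kb for Mt1, 41.5 for Nqo1 and 32.1 for Nfe2l2. Txnrd1 (7.96 CPM per kb), Srxn1 (7.88) and Hmox1 (7.37) came next and lay close to each other. Their group means interleaved, with 8.02, 8.48 and 7.37 for Txnrd1, 7.82, 7.77 and 8.05 for Srxn1, and 7.27, 7.33 and 7.50 for Hmox1 in knockdown TAC, TAC and sham. Gclc (5.06) and Gclm (3.83) came next, then Mt2 (1.04), and Slc7a11 was last at 0.0282 CPM per kb. Levels did not overlap between Mt1 and Nqo1 or between Gclm and Mt2, whereas Txnrd1, Srxn1 and Hmox1 could not be ordered.

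**Figure D1:**
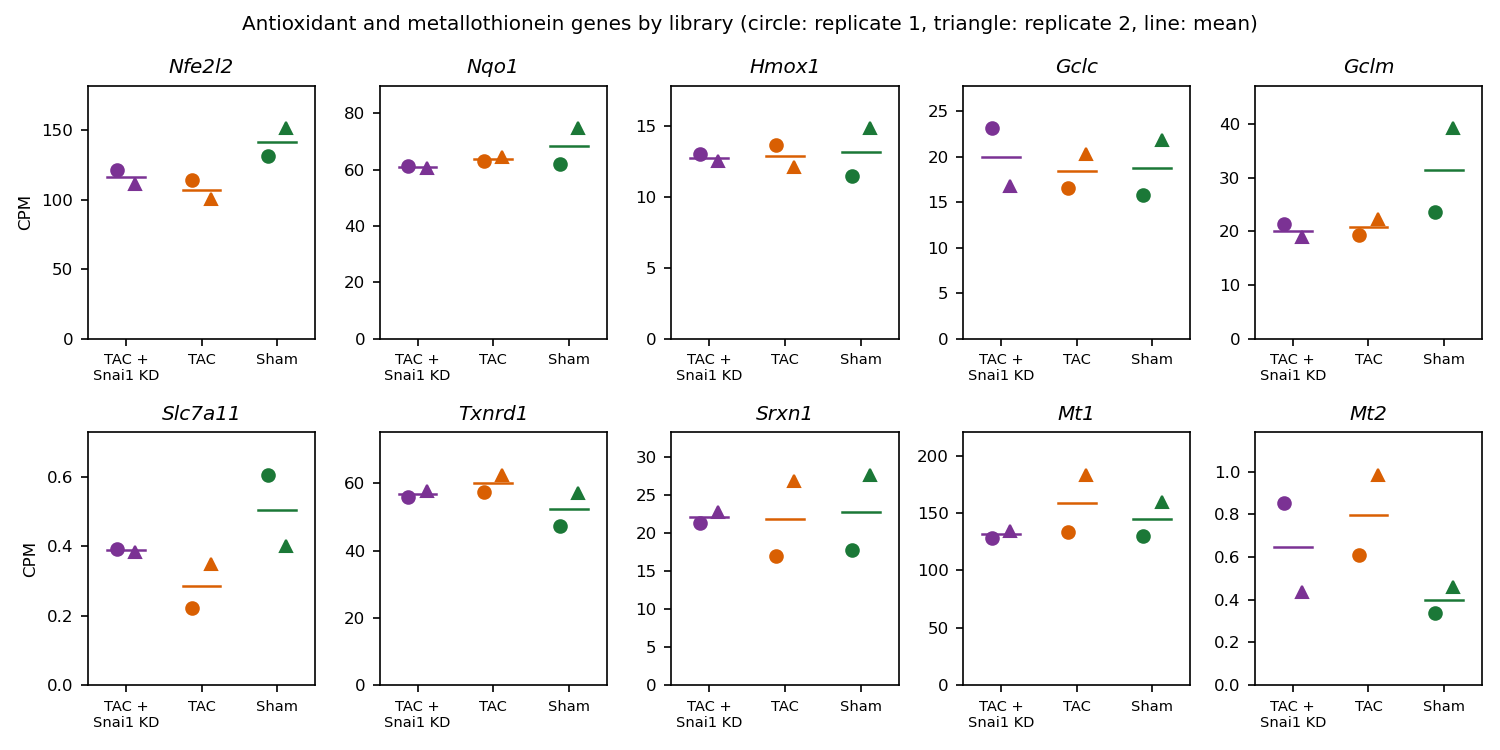
Level of each of the 10 genes in CPM (y axis, from 0) in the knockdown TAC, TAC and sham libraries, with circles for replicate 1, triangles for replicate 2 and a line at the mean. Gclm is near 20 CPM in all knockdown TAC and TAC libraries, while the sham libraries hold 23.6 and 39.3 CPM.

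TAC against sham asks how pressure load changed the set. None of the 9 genes that could be tested passed limma's test at a Benjamini-Hochberg adjusted p below 0.05, against 0.159% of all 14447 tested genes. At an unadjusted p below 0.05 there were 2, Nfe2l2 and Gclm, both lower in TAC, against 9.57% of all genes, and with voom weights the adjusted count was again 0. The 2 libraries of TAC lay outside the range of the sham libraries for 4 of the 9: Txnrd1 and Mt2 were higher and Nfe2l2 and Gclm lower. Of all tested genes, 40.1% were so separated, 23.8% higher and 16.3% lower. The median log2 fold change was -0.02 over the 9 genes and 0.04 over all tested genes. Slc7a11 did not reach the expression filter. Mt2 passed it only through knockdown TAC and TAC libraries, which bears on its place among the higher genes.

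**Figure D2:**
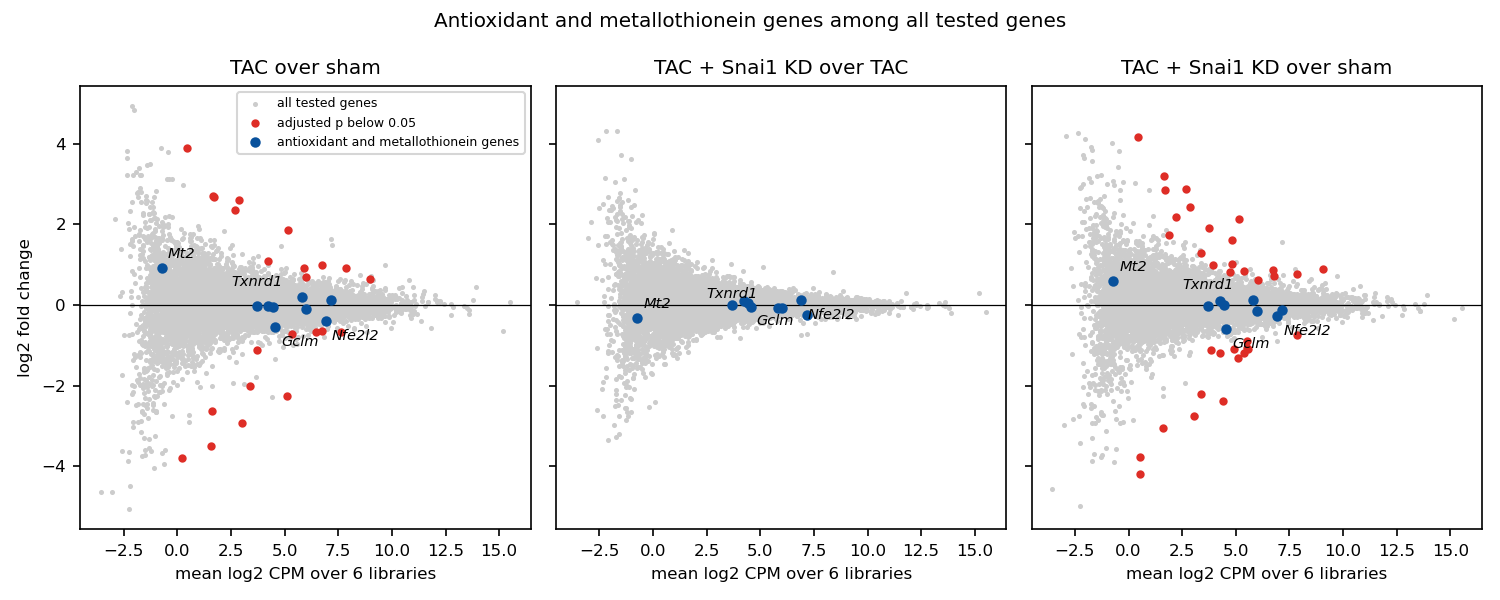
Log2 fold change (y axis) against mean log2 CPM over the 6 libraries (x axis) for 14447 tested genes, in 3 comparisons. Genes of the set are blue and genes with an adjusted p below 0.05 are red: 23 in TAC over sham, 0 in knockdown TAC over TAC and 35 in knockdown TAC over sham, none of them blue.

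Knockdown TAC against TAC asks how knockdown of Snai1 changed these genes under pressure load. None of the 9 genes passed, and across all genes 0% did. At an unadjusted p below 0.05 there were 0 of the 9 and 299 of all 14447 genes (2.07%), and limma with voom weights likewise called 0. The groups did not overlap for 1 of the 9, Nqo1, which was lower in knockdown TAC, against 28.4% of all genes (16% higher, 12.4% lower). The 95% intervals of the fold change show what these libraries could not resolve: 0.913 to 1.30 for Nfe2l2, 0.795 to 1.15 for Nqo1, 0.781 to 1.15 for Txnrd1 and 0.677 to 1.04 for Mt1. They were wider for Gclm (0.712 to 1.32), Hmox1 (0.741 to 1.33), Gclc (0.789 to 1.46) and Srxn1 (0.735 to 1.46), and widest for Mt2 (0.233 to 2.74). The median log2 fold change was -0.05 over the 9 genes and 0.02 over all.

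Knockdown TAC against sham gave 0 of 9 genes past the test, against 0.242% of all genes, and 2 at an unadjusted p below 0.05, again Nfe2l2 and Gclm, against 8.8%. With voom weights the adjusted count was 0. The groups did not overlap for 3 of the 9, Nfe2l2, Nqo1 and Gclm, all lower in knockdown TAC, against 39.3% of all genes (25.5% higher, 13.9% lower). The median was -0.03 over the 9 genes and 0.05 over all. The 3 comparisons share libraries in pairs, so a gene that was low in both TAC groups against the same sham libraries was not seen independently.

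**Figure D3:**
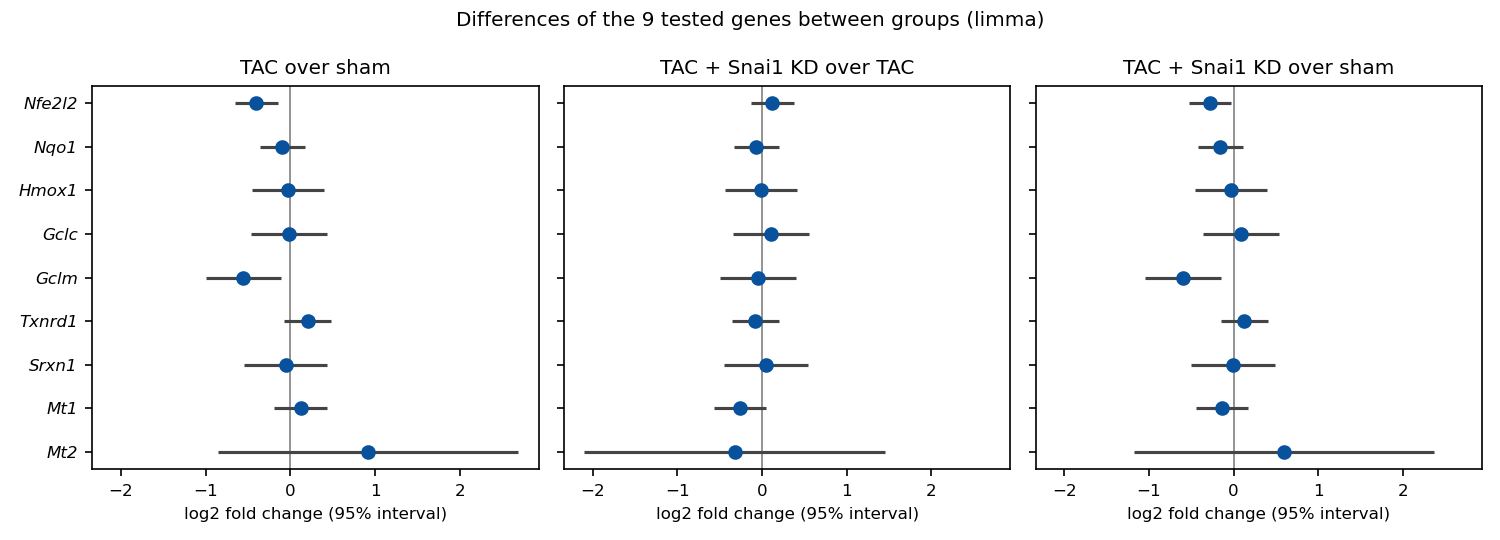
Log2 fold change of the 9 tested genes (points) with its 95% interval (lines) in TAC over sham, knockdown TAC over TAC, and knockdown TAC over sham. Only the intervals of Nfe2l2 and Gclm lie below 0, in both comparisons with sham, and no adjusted p is below 0.05.

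The regulator Nfe2l2 (chr2:75675513-75704641, minus strand, GRCm38) had 121 and 112 CPM in knockdown TAC, 114 and 100.2 in TAC, and 132 and 152 in sham. All 4 TAC libraries, with or without knockdown, were below both sham libraries. The fold change of TAC over sham was -0.40 ± 0.12 on the log2 scale (SE, n = 2 each; 95% interval -0.65 to -0.15; limma adjusted p = 0.240), a ratio of 0.758. Knockdown TAC over sham was -0.28 ± 0.12 (adjusted p = 0.522) and knockdown TAC over TAC 0.12 ± 0.12 (adjusted p = 0.999). Without sham replicate 2 the first of these was -0.30 and the second -0.18.

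Nqo1 (chr8:107388225-107403206, minus strand) encodes a quinone reductase and is a widely used NRF2 target. It had 61.2 and 60.7 CPM in knockdown TAC, 63.2 and 64.4 in TAC, and 62.0 and 74.8 in sham. Of the 9 tested genes it varied least over the libraries, with a ratio of 1.23 between the highest and the lowest. The 4 TAC libraries and sham replicate 1 lay close together, and sham replicate 2 stood above them. The TAC over sham difference was -0.09 ± 0.12 on the log2 scale (adjusted p = 0.851), and without sham replicate 2 it was 0.04. Knockdown TAC lay just below TAC, by -0.07 ± 0.12 (adjusted p = 0.999).

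Hmox1 (chr8:75093621-75100589, plus strand) encodes heme oxygenase 1, the inducible enzyme that breaks heme down to biliverdin, iron and carbon monoxide. It had 13.0 and 12.5 CPM in knockdown TAC, 13.6 and 12.1 in TAC, and 11.5 and 14.8 in sham. Both sham libraries enclosed all the others. The log2 fold change of TAC over sham was -0.02 ± 0.20, with a 95% interval for the fold of 0.733 to 1.32, and knockdown TAC over TAC was -0.01 ± 0.20.

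Gclc and Gclm encode the catalytic and the modifier subunit of glutamate-cysteine ligase, which performs the rate-limiting step of glutathione synthesis. Gclm (chr3:122245557-122270732, plus strand) had 21.3 and 19.0 CPM in knockdown TAC, 19.3 and 22.3 in TAC, and 23.6 and 39.3 in sham. All TAC libraries were below both sham libraries, but sham replicate 1 was near them and sham replicate 2 was far above. TAC over sham was -0.55 ± 0.21 on the log2 scale (n = 2 each; 95% interval -0.998 to -0.11; adjusted p = 0.391), a ratio of 0.681. Knockdown TAC over sham was -0.60 ± 0.21 (adjusted p = 0.398), and knockdown TAC over TAC was -0.05 ± 0.21. The value against sham depended on a single library. Without sham replicate 2, TAC over sham was -0.19 and knockdown TAC over sham -0.23, and without sham replicate 1 they were -0.92 and -0.97 (adjusted p = 0.0757 and 0.0562). Of the exon bases of Gclm, 4.71% overlap a gene on the opposite strand.

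Gclc (chr9:77754535-77794485, plus strand) had 23.1 and 16.8 CPM in knockdown TAC, 16.5 and 20.3 in TAC, and 15.8 and 21.8 in sham. All 3 groups overlapped. TAC over sham was -0.02 ± 0.21 on the log2 scale (adjusted p = 0.985) and knockdown TAC over TAC 0.10 ± 0.21. The ratio of Gclm to Gclc per kb, computed after the values were seen, was 0.551 and 0.677 in knockdown TAC, 0.699 and 0.657 in TAC, and 0.895 and 1.08 in sham. Both sham libraries thus had more of the modifier subunit's RNA relative to the catalytic one than any TAC library. This ratio was not tested.

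Slc7a11 (chr3:49892526-50443614, minus strand) encodes the xCT chain of the exchanger that imports cystine for glutathione synthesis. It was near the limit of detection, with 6 and 7 reads in knockdown TAC, 4 and 6 in TAC, and 9 and 7 in sham. As CPM this was 0.393 and 0.384 CPM in knockdown TAC, 0.221 and 0.348 in TAC, and 0.607 and 0.402 in sham. Both sham libraries were thus above the others in CPM but not in reads, as sham replicate 2 and knockdown replicate 2 each had 7. With no expression filter TAC over sham was -0.78 ± 0.83 on the log2 scale (adjusted p = 0.822), so a difference was not detectable at this depth.

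Txnrd1 (chr10:82833951-82897712, plus strand) encodes the cytosolic thioredoxin reductase. It had 55.8 and 57.8 CPM in knockdown TAC, 57.5 and 62.6 in TAC, and 47.3 and 57.3 in sham. The TAC libraries were just above the sham libraries, the lower TAC value exceeding the higher sham value by a small margin. Between TAC and sham the difference was 0.21 ± 0.13 on the log2 scale (95% interval -0.07 to 0.48; adjusted p = 0.656), a value of 0.07 if sham replicate 1 is left out and of 0.34 if sham replicate 2 is.

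Srxn1 (chr2:152105516-152111376, plus strand) encodes sulfiredoxin, which restores overoxidised peroxiredoxins. It had 21.4 and 22.7 CPM in knockdown TAC, 16.9 and 26.9 in TAC, and 17.7 and 27.7 in sham. The knockdown TAC libraries agreed closely, whereas TAC and sham each held a low and a high library. TAC over sham was -0.06 ± 0.23 on the log2 scale and knockdown TAC over TAC 0.05 ± 0.23 (adjusted p = 0.957 and 0.999).

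Mt1 (chr8:94179082-94180327, plus strand) encodes metallothionein 1 and was the most abundant gene of the set per length. It had 128 and 134 CPM in knockdown TAC, 134 and 183 in TAC, and 130.2 and 159 in sham. TAC replicate 2 was the highest library, and the other TAC library was at the level of knockdown TAC. The difference of TAC over sham was 0.12 ± 0.14 on the log2 scale (adjusted p = 0.836). Knockdown TAC over TAC was -0.26 ± 0.14 (unadjusted p = 0.0970, adjusted p = 0.999), which was -0.03 without TAC replicate 2 and -0.48 without TAC replicate 1.

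Mt2 (chr8:94172664-94173568, plus strand), the other widely expressed metallothionein, lies beside Mt1 but was counted at 13 and 8 reads in knockdown TAC, 11 and 17 in TAC, and 5 and 8 in sham. Both TAC libraries were above both sham libraries, and the knockdown libraries lay on either side of the lower TAC value. Its difference of TAC over sham was 0.92 ± 0.83 on the log2 scale, with a 95% interval from -0.86 to 2.69 (adjusted p = 0.772). Mt2 held 0.659 and 0.326% of the reads of the pair Mt1 and Mt2 in knockdown TAC, 0.453 and 0.535% in TAC, and 0.258 and 0.288% in sham. An antisense gene, Gm45774 (chr8:94170748-94173412, minus strand), overlaps 73.5% of the exon bases of Mt2, and no opposite-strand gene overlaps the exons of Mt1. The sources used here do not give the counting tool or its strand setting, so reads of Mt2 and of this antisense gene cannot be told apart, and the part of the overlap in the low count was not tested. Among protein-coding genes, the median level was 0.174 CPM per kb (quartiles 0.0443 and 0.949) for the 32 with over 70% of their exon bases overlapped in this way. It was 1.85 for the 525 with above 25 to 70%, 3.10 for the 4050 with above 0 to 25% and 2.51 for the 11268 with no overlap. Mt2, at 1.04 CPM per kb, was above the upper quartile of the first class. The levels of Mt2 are uncertain because its reads cannot be told apart from those of the antisense gene.

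The libraries of a group also differed from each other. In sham, replicate 2 was above replicate 1 for all 9 tested genes, while 46.0% of all tested genes were higher there. The difference was 0.73 for Gclm, 0.64 for Srxn1 and 0.47 for Gclc on the log2 scale, against an SD of 0.28, 0.29 and 0.30 over genes of like level. For Nfe2l2 it was 0.21, against an SD of 0.22. Sham replicate 2 was the highest of the 6 libraries for 5 of the 9 genes, and for 13.5% of all tested genes. In TAC, replicate 2 was higher for 7 of 9, with 0.67 for Srxn1 (SD 0.25) and 0.46 for Mt1 (SD 0.20), against 59.7% of all genes. In knockdown TAC, replicate 2 was higher for 3 of 9, against 39.6% of all genes, and Gclc was lower by -0.46 (SD 0.26). No label gives the replicate numbers a meaning beyond naming libraries, so these signs have no direction of their own.

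**Figure D4:**
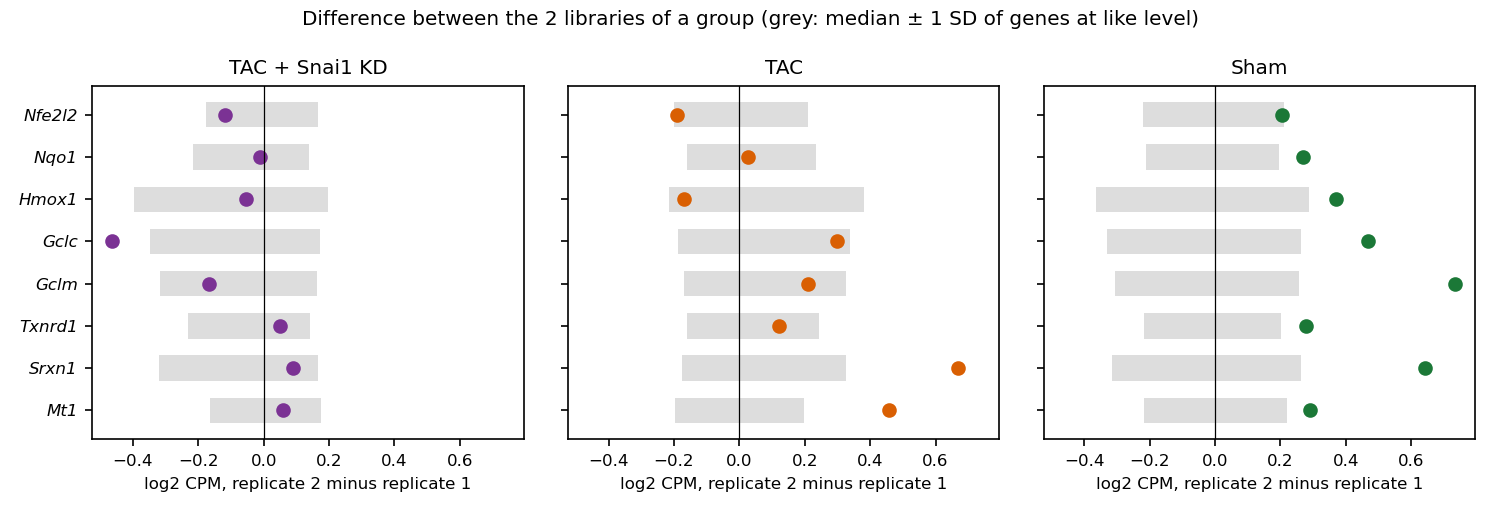
Log2 CPM of replicate 2 minus replicate 1 (points) in knockdown TAC, TAC and sham for 8 genes, with grey bars for the median ± 1 SD over genes within 0.5 log2 units of the gene's mean level. The sham points lie to the right of 0 for all 8, with Gclm at 0.73 and Srxn1 at 0.64; Mt2 and Slc7a11 are left out for their few reads.

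Genes with a like pattern over the 6 libraries were sought for the 3 genes of at least 10 CPM with the largest spread, by the root mean square distance of centred log2 CPM among 8915 genes. For Gclm these were Lnx2 (distance 0.086), Rin3 (0.088) and Hsp90aa1 (0.098), a heat shock protein 90 gene, and the nearest gene of the set was Nfe2l2 at rank 134. Hsp90aa1 had 73.0 and 69.6 CPM in knockdown TAC, 76.7 and 79.7 in TAC, and 85.1 and 125 in sham. Like Gclm, it was highest in sham replicate 2, a likeness to be looked for in a gene chosen by its distance to Gclm over these same libraries. For Srxn1 the nearest were Cyb5d2 (0.069), Rab31 (0.092) and Cstf3 (0.097), with Mt1 at rank 100. For Gclc they were Oas2 (0.050), Rcn1 (0.055) and Lamtor4 (0.056), and the nearest gene of the set was Hmox1 at rank 1426.

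Other genes of the same pathways were taken from lists. The values over all tested genes, for each list below, are given in the order TAC over sham, knockdown TAC over TAC and knockdown TAC over sham. Calls at an adjusted p below 0.05 were 0.159, 0 and 0.242% of all tested genes. An unadjusted p below 0.05 was seen for 9.57, 2.07 and 8.8%, and the medians were 0.04, 0.02 and 0.05. Of 10 tested genes for the control of NRF2, none passed in any comparison, and none had an unadjusted p below 0.05. Their medians were -0.08 in TAC over sham, -0.02 in knockdown TAC over TAC and -0.07 in knockdown TAC over sham. Bach2, a paralog of the repressor BACH1, had 6.88 and 7.18 CPM in knockdown TAC, 5.25 and 4.53 in TAC, and 6.27 and 4.42 in sham. Sqstm1, which encodes the KEAP1-binding autophagy receptor p62, had 349.9 and 383 CPM in knockdown TAC, 377 and 358 in TAC, and 346 and 598 in sham. Maff, a small MAF partner of NRF2, had 7.93 and 6.80 CPM in knockdown TAC, 6.96 and 8.25 in TAC, and 7.62 and 12.1 in sham. For both, sham replicate 2 stood above the other 5 libraries. Mafg, another small MAF gene, was at -0.12 ± 0.14 in knockdown TAC over TAC, against 0.53 ± 0.28 for Bach2 (adjusted p = 0.999 for each).

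Of 28 genes for glutathione supply and use, 0 passed limma's test in any comparison. In TAC over sham 2 had an unadjusted p below 0.05: Ggct, a gamma-glutamylcyclotransferase, at -0.42 ± 0.18, and Gsta3, a glutathione transferase, at -0.64 ± 0.28 on the log2 scale (adjusted p = 0.478 and 0.480). Gpx3, the secreted glutathione peroxidase, had 315.5 and 262 CPM in knockdown TAC, against 323 and 395 in TAC, a difference of -0.31 ± 0.13 (adjusted p = 0.999). Chac2, which encodes a glutathione-degrading enzyme, was at 0.42 ± 0.20 in the same comparison (adjusted p = 0.999). The medians were -0.03 in TAC over sham, 0.08 in knockdown TAC over TAC and -0.02 in knockdown TAC over sham.

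None of 15 thioredoxin and peroxiredoxin genes and none of 4 genes for superoxide and peroxide removal passed in any comparison. At an unadjusted p below 0.05 the thioredoxin list held 0, 0 and 1 and the removal list 1, 0 and 1 in TAC over sham, knockdown TAC over TAC and knockdown TAC over sham. The medians over the same comparisons were 0.03, 0.05 and -0.00 for the first list and -0.08, 0.02 and -0.08 for the second. Prdx6, a peroxiredoxin, was at -0.16 ± 0.10 and Txnl1, a thioredoxin-like gene, at -0.15 ± 0.11 in TAC over sham (adjusted p = 0.661 and 0.730). Txnrd3, a thioredoxin reductase known from testis, had 26.9 and 31.0 CPM in knockdown TAC, 24.4 and 23.3 in TAC, and 22.9 and 21.6 in sham. Knockdown TAC over TAC was 0.27 ± 0.15 for Txnrd3 (adjusted p = 0.999). Txnip, the thioredoxin-interacting inhibitor, had 313 and 329 CPM in knockdown TAC, 524 and 317 in TAC, and 347 and 515 in sham. Both TAC and sham held a low and a high library, and knockdown TAC over TAC was -0.34 ± 0.20 (adjusted p = 0.999). Cat, encoding catalase, had 367 and 349 CPM in knockdown TAC, 337 and 378 in TAC, and 395 and 457 in sham, a TAC over sham difference of -0.25 ± 0.11 (adjusted p = 0.481). Sod1 and Sod2, the cytosolic and mitochondrial superoxide dismutases, had TAC over sham differences of -0.12 ± 0.11 and 0.05 ± 0.11.

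The 10 genes for NADPH supply also gave 0 calls. Unadjusted p-values below 0.05 numbered 2, 0 and 1 in TAC over sham, knockdown TAC over TAC and knockdown TAC over sham, and the medians were 0.04, 0.03 and 0.05. Me1, the cytosolic malic enzyme, was at -0.34 ± 0.11 and Idh1, the cytosolic isocitrate dehydrogenase, at 0.33 ± 0.12 in TAC over sham (adjusted p = 0.331 and 0.379), so these sources of NADPH lay on opposite sides of 0. In knockdown TAC over TAC, Me1 was at 0.15 ± 0.11 and G6pdx, the entry enzyme of the pentose phosphate pathway, at 0.35 ± 0.23 (adjusted p = 0.999 for each). Among 10 genes for heme and iron handling, 0 passed, with 2, 1 and 1 at an unadjusted p below 0.05 and medians of -0.10, 0.11 and 0.04. Cp, encoding the ferroxidase ceruloplasmin, had 143 and 126 CPM in knockdown TAC, 151.5 and 169 in TAC, and 112 and 124 in sham (TAC over sham 0.44 ± 0.11, adjusted p = 0.177). Knockdown TAC over TAC was -0.25 ± 0.11 for Cp and 0.92 ± 0.70 for Hp, the haptoglobin gene, which was at or below 1.57 CPM in every library (adjusted p = 0.999 for each). Tfrc, the transferrin receptor, had 184 and 223 CPM in knockdown TAC, 194 and 236 in TAC, and 169 and 28.1 in sham. Its TAC over sham difference of 1.63 ± 0.50 (adjusted p = 0.275) was 0.34 with sham replicate 2 left out, and with sham replicate 1 left out it was 2.93 and past the threshold (adjusted p = 5.3e-07).

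Detoxifying enzymes for quinones, aldehydes and other substrates gave 0 calls among 16 tested genes, with 4, 2 and 5 at an unadjusted p below 0.05 and medians of -0.09, 0.05 and -0.01. These counts were above the shares of all tested genes, 9.57, 2.07 and 8.8%, and that excess was not tested. Aox1, an aldehyde oxidase, had 34.7 and 29.5 CPM in knockdown TAC, 25.4 and 24.3 in TAC, and 37.4 and 51.9 in sham. The 3 groups did not overlap, with TAC lowest. TAC over sham was -0.83 ± 0.17 on the log2 scale (adjusted p = 0.0602), -1.06 and past the threshold without sham replicate 1 (adjusted p = 0.0174) and -0.59 without sham replicate 2. Knockdown TAC over TAC was 0.37 ± 0.17 (adjusted p = 0.999). Aldh1a1, a retinaldehyde dehydrogenase, was at -0.59 ± 0.15 in TAC over sham (adjusted p = 0.173). Akr1b10, an aldo-keto reductase, was at 0.31 ± 0.13 in knockdown TAC over TAC (adjusted p = 0.999).

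Among 10 genes for other metallothioneins and for zinc and copper handling, 0 passed, with 2, 0 and 1 at an unadjusted p below 0.05 and medians of 0.12, -0.05 and 0.08. Slc31a1, the copper importer, was at 0.40 ± 0.15 and Slc39a14, a zinc and manganese importer, at 0.27 ± 0.11 in TAC over sham (adjusted p = 0.377 and 0.455). In knockdown TAC over TAC, Slc39a14 was at -0.09 ± 0.11 and Ccs, the copper chaperone of superoxide dismutase, at -0.38 ± 0.24 (adjusted p = 0.999 for each). Genes responsive to glucocorticoids, which induce metallothioneins, gave 0 calls of 13, with 1, 1 and 0 at an unadjusted p below 0.05 and medians of -0.11, 0.10 and -0.11. The sham libraries differed widely in this list, which limits both comparisons with sham. Its sums were 911 and 866 CPM in knockdown TAC, 946 and 828 in TAC, and 766 and 1276 in sham. All its genes but Lcn2 were higher in sham replicate 2 than in sham replicate 1. Pdk4, named after its values were seen, had 70.7 and 327 CPM in sham. Zbtb16, a classical glucocorticoid target, had 103 and 89.8 CPM in knockdown TAC, 75.1 and 71.5 in TAC, and 51.3 and 106 in sham, and was at 0.39 ± 0.23 in knockdown TAC over TAC. Lcn2, encoding lipocalin 2, had 3.54 and 9.48 CPM in knockdown TAC, 2.98 and 2.55 in TAC, and 6.34 and 3.10 in sham. Knockdown TAC over TAC was 1.06 ± 0.44 for Lcn2 (adjusted p = 0.999). Dusp1, a phosphatase of MAP kinases, was at -0.26 ± 0.12 and Per1, a clock gene, at -0.28 ± 0.17 in TAC over sham (adjusted p = 0.487 and 0.632).

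Superoxide sources held the only call among these pathway lists. It was 1 of 11 genes and only in knockdown TAC over sham, where 0.242% of all tested genes were called. Cybb, encoding the catalytic subunit of the phagocyte NADPH oxidase, had 21.4 and 18.2 CPM in knockdown TAC, 16.4 and 18.9 in TAC, and 10.6 and 9.13 in sham. It rose by 0.999 ± 0.19 on the log2 scale in knockdown TAC over sham (adjusted p = 0.0443) and was at 0.83 ± 0.19 in TAC over sham (adjusted p = 0.0970). The call was lost in each of the 6 fits that left out 1 library, where the adjusted p ran from 0.0562 without sham replicate 1 to 0.429 without knockdown replicate 1. With all 6 libraries it was also lost with quantile normalization, no filter, voom weights and the replicate block (adjusted p up to 0.0804). Summed macrophage markers were also higher there: 15 of 15 were detected, and they summed to 646 to 951 CPM in knockdown TAC, 597 to 742 in TAC and 417 to 460 in sham. Of the 15, 4 rose in knockdown TAC over sham (Cd68, Lgals3, Ms4a7 and Mpeg1) and 3 in TAC over sham (Lgals3, Ms4a7 and Mpeg1). Over all tested genes, 0.242% and 0.159% were called. The medians of the list were 0.59 and 0.57 in these comparisons, with 13 genes above and 2 below 0 in each. Itgam was lower, with 2.03 and 1.70 CPM in knockdown TAC, 1.33 and 1.92 in TAC, and 4.18 and 2.24 in sham. The largest part of the sums was Lyz2, with 349 and 230 CPM in knockdown TAC, 196 and 267 in TAC, and 175 and 136 in sham. In knockdown TAC over sham the call of Mpeg1 was kept in all 6 fits that left out 1 library. Those of Lgals3 and Ms4a7 were lost without sham replicate 2 and without knockdown replicate 1 (adjusted p up to 0.407 and 0.141), and that of Cd68 was lost in 5 of the 6, all but the fit without sham replicate 1 (up to 0.407). In TAC over sham, Mpeg1 was lost without TAC replicate 2 (adjusted p = 0.0678), and Lgals3 and Ms4a7 without TAC replicate 2 or sham replicate 2 (up to 0.331 each). With voom weights Lgals3 and Ms4a7 were lost in both comparisons. Mrc1 was at 0.40 ± 0.17 and Csf1r at 0.26 ± 0.13 in knockdown TAC over TAC (adjusted p = 0.999 for each). Their part in the Cybb result was not tested. Maob, a monoamine oxidase, was at -0.37 ± 0.14 in TAC over sham (adjusted p = 0.395), and Xdh, encoding xanthine oxidoreductase, and Maoa were at 0.17 ± 0.12 and 0.31 ± 0.30 in knockdown TAC over TAC (adjusted p = 0.999 for each). For the superoxide sources, the counts at an unadjusted p below 0.05 were 2, 0 and 1 and the medians -0.03, 0.17 and 0.16 in TAC over sham, knockdown TAC over TAC and knockdown TAC over sham.

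**Figure D5:**
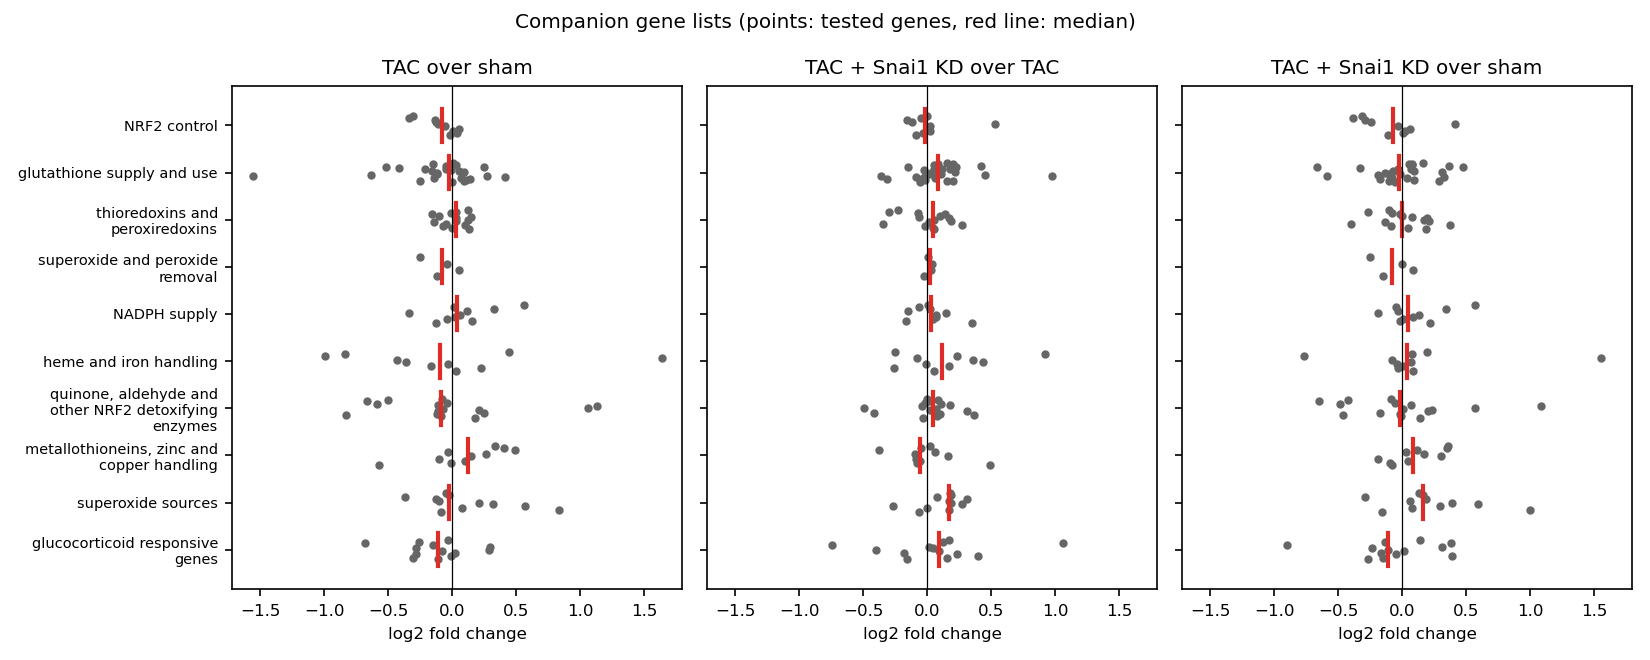
Log2 fold change (x axis) of each tested gene (grey points) in 10 pathway lists, with the list median in red, for TAC over sham, knockdown TAC over TAC, and knockdown TAC over sham. List medians lie between -0.11 and 0.17, and Cybb among the superoxide sources, at 0.999 in knockdown TAC over sham, is the single point with an adjusted p below 0.05.

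Markers of endothelial cells and fibroblasts gave 0 calls of 8 each in every comparison. Their sums were 1423 to 1662 and 2755 to 3127 CPM in knockdown TAC, 1303 to 1640 and 2607 to 2999 in TAC, and 1231 to 1347 and 2829 to 2939 in sham. At an unadjusted p below 0.05 the endothelial list held 1, 0 and 2 and the fibroblast list 0, 0 and 0. Cardiomyocyte, erythroid and lymphocyte lists also gave 0 calls, of 8, 4 and 7 tested, and in TAC over sham 2, 3 and 2 of them had an unadjusted p below 0.05. In TAC over sham, Actc1 and Ryr2 of the cardiomyocyte list were at 0.45 ± 0.18 and 0.44 ± 0.15, Hba-a1 and Hba-a2 of the erythroid list at -0.67 ± 0.24 and -0.61 ± 0.22, and Vwf and Tie1 of the endothelial list at 0.44 ± 0.14 and 0.24 ± 0.13 (adjusted p between 0.290 and 0.583). Of the 8 cardiomyocyte genes, 4 were above and 4 below 0 in TAC over sham, with a median of -0.006. Tnni3, for 1, had 6585 and 6453 CPM in TAC and 7999 and 7391 in sham. All 4 tested erythroid genes were below 0, and the endothelial list had 7 above and 1 below. The T cell gene Lck was counted at 14 and 13 reads in knockdown TAC, 2 and 0 in TAC, and 13 and 13 in sham. Its log2 fold change was -3.73 ± 1.15 in TAC over sham and 3.73 ± 1.15 in knockdown TAC over TAC (limma adjusted p = 0.280 and 0.999). Of the 7 tested lymphocyte genes, 1 was above and 6 below 0 in TAC over sham. In knockdown TAC over TAC, 4 were above and 3 below 0, so the list did not share the pattern of Lck as a whole. Immediate early genes, which respond to tissue handling as well as to stimuli, held 2 genes that fell in both comparisons with sham. Nr4a1, an immediate early nuclear receptor, had 38.7 and 26.2 CPM in knockdown TAC, 18.2 and 15.2 in TAC, and 66.9 and 93.9 in sham, so TAC over sham was -2.25 ± 0.20 (adjusted p = 2.1e-04). Nr4a3, its paralog, was at -2.01 ± 0.28 in TAC over sham and -2.20 ± 0.28 in knockdown TAC over sham (adjusted p = 0.00848 and 0.0047). The Nr4a1 call in TAC over sham was kept in all 6 fits that left out 1 library, and in knockdown TAC over sham it was lost without sham replicate 2 or knockdown replicate 2 (adjusted p up to 0.152). The Nr4a3 call was lost in TAC over sham without sham replicate 2 or TAC replicate 2 (up to 0.0991) and in knockdown TAC over sham without sham replicate 2 or knockdown replicate 2 (up to 0.0611). Nr4a1 was at 0.93 ± 0.20 and Egr3, another immediate early gene, at -1.10 ± 0.46 in knockdown TAC over TAC (adjusted p = 0.999 for each). The 15 immediate early genes summed to 285 to 402 CPM in knockdown TAC, 335 to 359 in TAC and 437 to 486 in sham. These sums include Nr4a1 and Nr4a3, the only 2 called. Of the 15, 5 were above and 10 below 0 in TAC over sham, and 4 and 11 in knockdown TAC over sham, with medians of -0.29 and -0.24. Of the 9 tested genes of the set, 3 were above and 6 below 0 in each comparison with sham, Nfe2l2 and Gclm being among the 6. The part of handling in their values was not tested.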

How the data were processed

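The authors deposited 1 table of log2 values for 19320 genes in 6 columns. From the values, each deposited log2 column is log2 CPM in the form that voom of limma writes. Per the submitters' processing notes, limma was used and the build was mm10. Which aligner, counter, gene models and strand setting were used is not given in the sources used here. Each pair of columns was resolved as 60% and 40% mixes of 2 libraries, which gave whole reads within 0.05 for 99.9% of values, against 20.6 to 21.1% for the 12 pairs of columns from different groups, and 0 negative values. No source records such mixing. Libraries are numbered after the column to which each gives most reads.

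Log2 CPM with 0.5 reads added was fitted by limma 3.58.1 (lmFit, contrasts.fit, eBayes with an intensity trend; R 4.3.3) over all 6 libraries, 1 mean per group, with 3 residual and 11.3 prior degrees of freedom. On this scale the fold changes of low genes are understated. Genes needed the CPM of 10 reads in the median library (0.577 CPM) in at least 2 libraries and 15 reads in all. This kept 14447 genes and removed 4873 with 0.0583% of reads. P-values were adjusted over all tested genes by the Benjamini-Hochberg method. The procedure was tested on simulated data.

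The genes and lists were chosen with earlier results of these data known. The rule for naming genes of a list took those past the test and the 2 of smallest unadjusted p in TAC over sham and in knockdown TAC over TAC. It is followed in full for the pathway lists, and marker lists are given by their sums, calls and some of these genes. Alternatives were 2 scalings, 2 added reads, no filter, voom weights, a robust fit, the columns as deposited, a replicate block and leaving out each library.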

Additional observations from a re-analysis of the deposited data

How the results depend on the processing

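In every alternative fitted to the resolved libraries, 0 of the 9 tested genes of the set passed in each comparison, and the lowest adjusted p was 0.0562, for Gclm in knockdown TAC over sham without sham replicate 1. On the columns as deposited, 7, 6 and 6 of the set and 13812, 12137 and 13669 genes in all passed in TAC over sham, knockdown TAC over TAC and knockdown TAC over sham. Those columns are mixes of each other, so their small differences say little about samples. Genes called in TAC over sham, 23 in the reported fit, numbered 42 with 2 reads added and 9 with no filter, and 4 to 45 without 1 library (4 without TAC replicate 2, 15 without sham replicate 2, 43 without TAC replicate 1, 45 without sham replicate 1). In knockdown TAC over sham, 35 became 14 with no filter, 18 with voom weights, and 5 to 50 without 1 library: 5 without sham replicate 2, 9 and 19 without knockdown replicates 1 and 2, and 22 and 21 without TAC replicates 1 and 2. The labels give the replicate numbers no meaning beyond naming the samples. Deviations of same-numbered libraries correlated by -0.15 for sham and TAC, 0.09 for sham and knockdown TAC, and -0.09 for TAC and knockdown TAC. These values cannot show whether a batch or pairing ran across the groups. With the replicate number as a block the calls were 40, 1 and 35. With the TAC numbers crossed in that block, an alternative chosen after seeing the data, they were 72, 0 and 56. Neither block gave a call in the set. Leaving out 1 library turned the sign of 15 of the set's values, some in more than 1 fit, and no other alternative turned one. The leave-one-out ranges of these log2 fold changes in TAC over sham were -0.25 to 0.22 for Gclc, -0.21 to 0.16 for Hmox1, -0.11 to 0.35 for Mt1, -0.23 to 0.0404 for Nqo1 and -0.39 to 0.28 for Srxn1. In knockdown TAC over TAC they were -0.13 to 0.34 for Gclc, -0.15 to 0.0595 for Gclm, -0.0939 to 0.0763 for Hmox1, -0.79 to 0.14 for Mt2 and -0.29 to 0.38 for Srxn1. In knockdown TAC over sham they were -0.15 to 0.32 for Gclc, -0.22 to 0.15 for Hmox1, -0.28 to 0.0109 for Mt1, -0.33 to 0.31 for Srxn1 and -0.0119 to 0.27 for Txnrd1. Nfe2l2, Gclm and Mt2 kept their sign in both comparisons with sham under every alternative. So did Txnrd1 in TAC over sham and Nqo1 in knockdown TAC over sham. Leaving out 1 library leaves a lone sample in its group, which is assumed to vary like the others. Slc7a11 and Mt2 had 39 and 62 reads in all, so their values are also limited by depth. The cause of these shifts was not tested.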

Other observations

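Keap1, which encodes the inhibitor of NRF2, had 46.4 and 55.9 CPM in knockdown TAC, 52.8 and 51.3 in TAC, and 49.3 and 52.4 in sham, so that all groups overlapped. Nfe2l1, the ubiquitously expressed paralog of Nfe2l2, had 626 and 694 CPM in knockdown TAC, 731 and 672 in TAC, and 658 and 767 in sham. Nfe2l3, another paralog, was near the limit of detection, with 0 reads in 3 of the 6 libraries. Mt3, the metallothionein known from brain, had 0.721 and 0.658 CPM in knockdown TAC, 0.332 and 0.697 in TAC, and 1.15 and 0.459 in sham. These genes were chosen after their values were seen.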
